A study of Mus musculus and Rattus norvegicus with 4 samples.

Results

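The genes described are 10 dual-specificity MAPK phosphatases, Dusp1, Dusp2, Dusp4, Dusp5, Dusp6, Dusp7, Dusp8, Dusp9, Dusp10 and Dusp16, out of 21887 protein-coding mouse genes. They were taken by name around Dusp6, the gene in the title of the study, and all 10 were found in RefSeq's table of mouse genes for GRCm38.p6, of which mm10 is the browser name. The study mapped MEF2A, a transcription factor of muscle and other tissues, by ChIP-exo, a chromatin immunoprecipitation in which an exonuclease trims the bound DNA towards the edges of the protein footprint. The groups used were a MEF2A library from mouse C2C12 cells, an established line of skeletal myoblasts, grown with 10% fetal bovine serum and then kept for 48 h in differentiation medium with 2% horse serum, and a MEF2A library from primary cardiomyocytes of rats aged 1 to 3 days. The labels name no genetic change or drug for either, and each group has 1 library. The labels of the rat sample repeat the C2C12 treatment, so none is stated here for the cardiomyocytes. Matching libraries with normal rabbit IgG were not analysed here. The C2C12 list held 2797 peaks, and 9 of them lay within 100 kb of one of the 10 genes. A peak list measures no expression, so neither cell type was checked against its markers. The rat list held 1868 peaks, but no rn5 annotation was used, so rat peaks were not set against these genes.

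MAPK phosphatases remove phosphate from both the threonine and the tyrosine of the activation loop of MAP kinases and so switch them off. Dusp6, Dusp7 and Dusp9 encode cytoplasmic enzymes that prefer ERK. Dusp1, Dusp2, Dusp4 and Dusp5 encode inducible nuclear enzymes, of which the Dusp5 product is specific for ERK. Dusp8, Dusp10 and Dusp16 encode enzymes that prefer the stress kinases JNK and p38. MEF2 proteins are substrates of p38, and p38 signalling takes part in the differentiation of myoblasts.

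MEF2A peaks covered the sequence just before the start of Dusp6 and the start of Dusp8. These windows of 300 bases, 250 before and 50 after the RefSeq start (GRCm38.p6), are printed because each contains its peak whole, marked in capitals. The Dusp6 window is chr10:99262981-99263280 on the plus strand and the Dusp8 window is chr7:142095235-142095534 on the minus strand.
Dusp6: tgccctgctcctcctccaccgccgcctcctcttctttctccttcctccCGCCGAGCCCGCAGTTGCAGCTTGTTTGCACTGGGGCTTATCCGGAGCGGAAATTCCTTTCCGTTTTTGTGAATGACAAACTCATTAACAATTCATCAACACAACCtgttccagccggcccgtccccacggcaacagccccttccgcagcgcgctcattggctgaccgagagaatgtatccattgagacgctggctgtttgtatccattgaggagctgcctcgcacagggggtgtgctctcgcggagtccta
Dusp8: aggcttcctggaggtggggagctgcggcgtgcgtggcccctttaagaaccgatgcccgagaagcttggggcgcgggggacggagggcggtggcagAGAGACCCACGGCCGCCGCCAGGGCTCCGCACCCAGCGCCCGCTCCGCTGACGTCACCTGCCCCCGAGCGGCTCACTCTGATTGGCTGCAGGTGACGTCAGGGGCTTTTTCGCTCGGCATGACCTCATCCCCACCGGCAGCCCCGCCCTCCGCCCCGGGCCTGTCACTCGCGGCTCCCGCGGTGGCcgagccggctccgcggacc
The windows at the RefSeq starts of Dusp5 and Dusp16 are printed for contrast, since they hold named motifs and no peak. The Dusp5 window is chr19:53528895-53529194 on the plus strand, with its CArG boxes, the binding sequence of serum response factor, in capitals. The Dusp16 window is chr6:134792579-134792878 on the minus strand, with its match to the MEF2 consensus in capitals.
Dusp5: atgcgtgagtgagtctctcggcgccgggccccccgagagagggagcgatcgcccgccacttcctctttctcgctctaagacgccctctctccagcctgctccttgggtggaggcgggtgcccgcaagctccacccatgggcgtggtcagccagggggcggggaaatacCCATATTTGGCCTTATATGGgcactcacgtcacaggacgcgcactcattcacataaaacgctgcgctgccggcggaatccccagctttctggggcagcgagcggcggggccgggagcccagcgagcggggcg
Dusp16: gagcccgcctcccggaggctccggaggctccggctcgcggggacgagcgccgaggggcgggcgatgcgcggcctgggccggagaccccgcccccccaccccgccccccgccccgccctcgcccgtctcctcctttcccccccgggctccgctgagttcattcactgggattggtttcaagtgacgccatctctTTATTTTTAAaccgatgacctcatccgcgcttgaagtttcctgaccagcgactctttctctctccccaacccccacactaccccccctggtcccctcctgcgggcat

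A MEF2A peak lay within 100 kb of the gene span for 5 of the 10 phosphatases, namely Dusp1, Dusp5, Dusp6, Dusp8 and Dusp10. By the same rule 22.0% of all protein-coding genes had a peak. Within 10 kb of the span there was a peak for 4 of the 10, all of these but Dusp1, against 6.68% of all protein-coding genes. As the nearest protein-coding gene within 100 kb, 5 of the 10 were assigned a peak, against 7.73%. The 5 genes were spread over the subfamilies, with 1 of the 3 cytoplasmic genes, 2 of the 4 nuclear genes and 2 of the 3 genes for JNK and p38. With 1 library per group no test was made, and the read depth is unknown. A gene without a listed peak may hold a site too weak for the list.

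**Figure D1:**
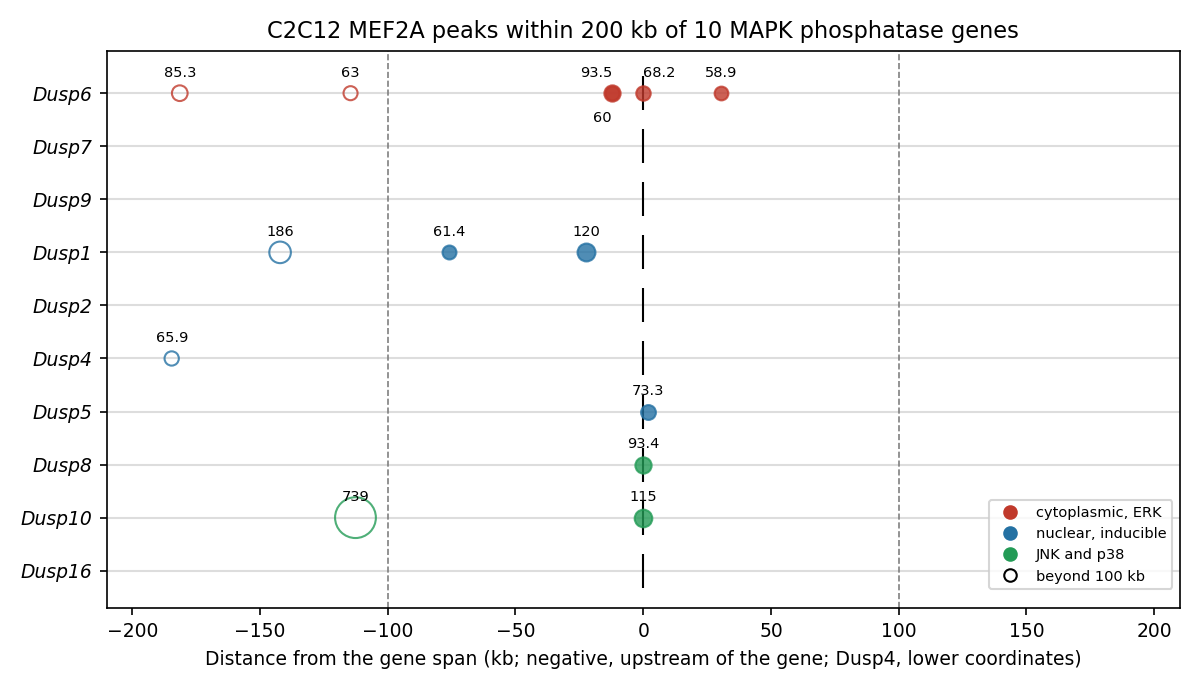
Position of each C2C12 MEF2A peak within 200 kb of the 10 genes, as distance in kb from the gene span on the horizontal axis, with the authors' score printed at each point, and larger points for higher scores. Filled points lie within 100 kb and open points beyond it. Dusp6 has 4 filled points, and Dusp7, Dusp9, Dusp2 and Dusp16 have no point.

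The peaks near these genes were weak to moderate in the list. The score is the authors' own value from the peak caller, higher for stronger peaks, and it ranks peaks within this list. The 9 peaks scored from 58.9 to 119.5, with a median of 73.3, against a median of 77.0 over all C2C12 peaks. Of the 9, 4 lay above the median of the list and 2 (22.2%) scored at least 100, a level reached by 1029 of the 2797 peaks (36.8%). These 2 peaks belonged to Dusp1 and Dusp10, so that 2 of the 10 genes had a peak of that score within 100 kb, against 10.3% of all protein-coding genes. The widths ran from 94 to 331 bp with a median of 128 bp, against 144 bp over all peaks.

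**Figure D2:**
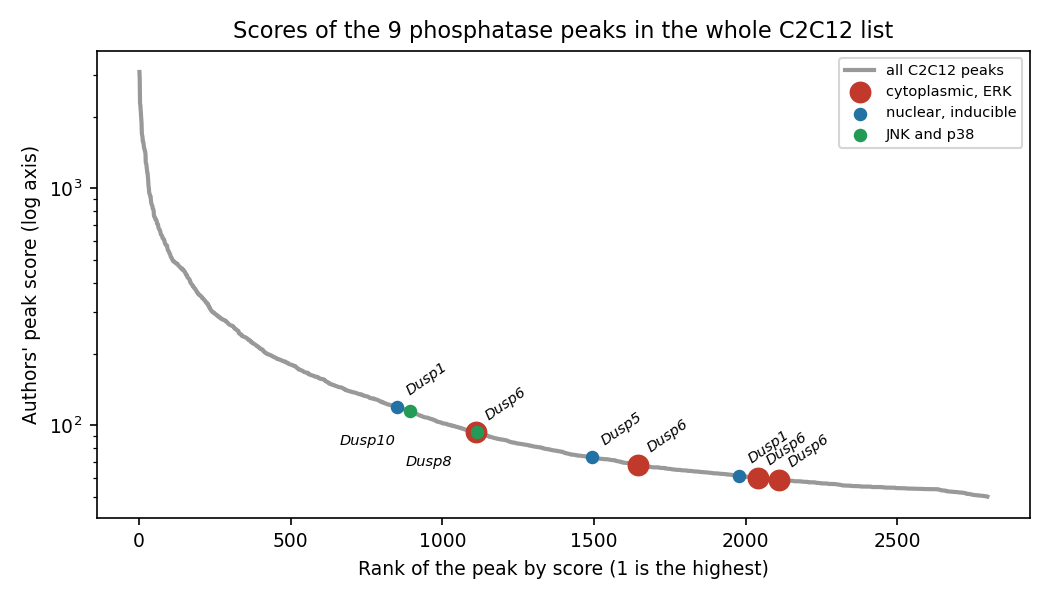
Authors' peak score (log axis) against rank for all 2797 C2C12 peaks (grey line), with the 9 peaks within 100 kb of a phosphatase gene as points coloured by subfamily. The highest of them, near Dusp1, ranks 850, and the lowest, near Dusp6, ranks 2111. The larger point at rank 1111, for Dusp6, lies under the Dusp8 point.

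Dusp6 (chr10:99263231-99267489, plus strand), which encodes the cytoplasmic ERK phosphatase of the title, had the most peaks of the 10 genes. It had 4 within 100 kb, a number reached or passed by 0.726% of all protein-coding genes. The peaks of a close pair, such as the Dusp6 pair described below, were counted separately for every gene. The share was not recomputed with such peaks merged. A count above 4 was found for 65 genes. The peak nearest to the gene, chr10:99263029-99263134, scored 68.2 and covered the bases 202 to 97 upstream of the start, as printed above. Farther upstream lay a pair 44 bp apart, chr10:99250796-99250893 with a score of 60.0 and chr10:99250938-99251065 with a score of 93.5. Gaps under 1 kb separated 237 of the 2776 neighbouring peaks of the list (8.54%), with a median gap of 52 bp, so the spacing of this pair was close to the middle of such pairs. The pair lay 12.2 to 12.4 kb upstream of the start, 12.0 kb from the peak at the start. The remaining peak, chr10:99297814-99297926, scored 58.9 and lay 30.3 kb beyond the downstream end. The strongest Dusp6 peak was therefore one of the distal pair and not the peak at the start. Dusp6 was the only one of the 10 genes with peaks on both sides of its span, a layout found for 1.53% of all protein-coding genes. This layout depends on the number of peaks. Apart from Dusp6, only Dusp1 had more than 1 peak and could have shown it. Of all protein-coding genes, 77.96% had no peak within 100 kb and 16.07% had 1.

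The Dusp6 peaks stood apart from other protein-coding genes. The nearest on the lower-coordinate side was Poc1b, which encodes a centriole protein, 65.2 kb from Dusp6, and the nearest on the other side, Csl, was 490.2 kb away. Each of the 4 peaks was closer to Dusp6 than to Poc1b, by distances to Poc1b of 52.7, 52.9, 64.96 and 99.7 kb. The same peaks also fall within 100 kb of Poc1b, which has 6 in its own window, so distance alone does not tie them to Dusp6. With genes of any type considered, the upstream pair was nearer to the long noncoding RNA gene Gm34777 (11.8 and 11.9 kb) and the downstream peak nearer to Gm34921 (26.9 kb), which left the peak at the start with Dusp6. Past the 100 kb limit, a peak of score 63.0 lay 114.5 kb upstream, inside Poc1b, and a peak of score 85.3 lay 181.4 kb upstream.

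**Figure D3:**
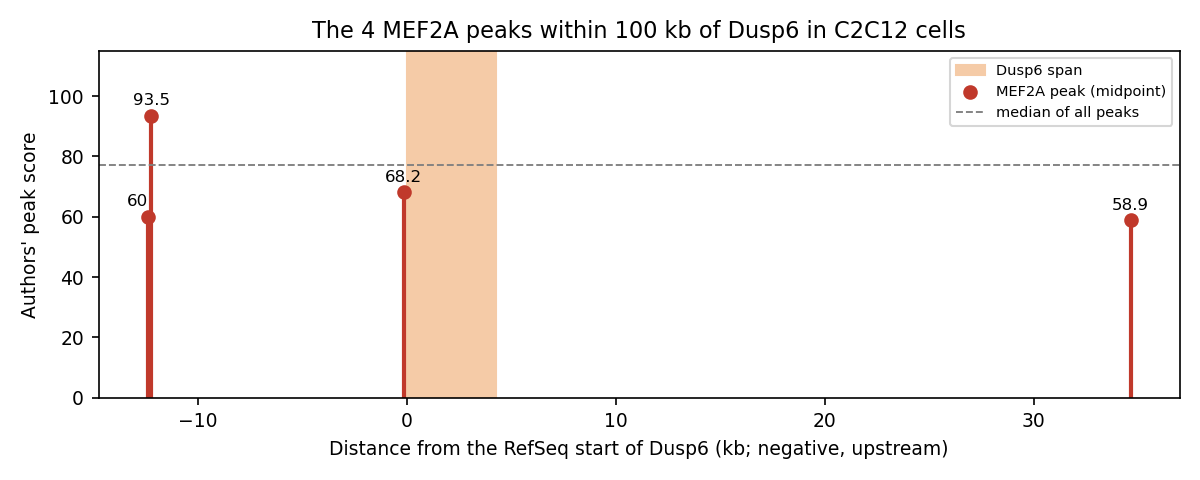
Authors' score of the 4 MEF2A peaks within 100 kb of Dusp6 against their distance in kb from the RefSeq start, with the gene span shaded and the median score of all C2C12 peaks (77.0) dashed. The peak of score 93.5 in the upstream pair is the only one above the dashed line.

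The other cytoplasmic ERK phosphatases had no peak nearby. The peak nearest to Dusp7 (chr9:106368560-106375724) was 990.6 kb away and scored 219, and that nearest to Dusp9 (chrX:73639389-73643514) was 602.4 kb away and scored 53.2. Both genes lie among more genes than Dusp6 does, with 8 protein-coding neighbours within 100 kb for Dusp7 and 5 for Dusp9, against 1 for Dusp6. The nearest neighbours of Dusp7, Poc1a (18.0 kb away) and the ribosomal protein gene Rpl29 (53.2 kb), also had no peak within 100 kb. The same held for those of Dusp9, the calcium pump gene Atp2b3 (66.1 kb) and the kinase gene Pnck (12.5 kb).

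Among the nuclear phosphatases, Dusp1 and Dusp5 had peaks and Dusp2 and Dusp4 had none within 100 kb. Dusp1 (chr17:26505591-26508472, minus strand), whose product acts on p38, JNK and ERK, had 2 peaks, both upstream. The first, chr17:26530882-26531212, scored 119.5, the highest of the 9, and lay 22.4 kb from the gene. It was nearer to Dusp1 than to Ergic1, a gene of the early secretory pathway at 29.6 kb, but the long noncoding RNA gene Gm34606 was closer still, at 3.71 kb. The second, chr17:26584575-26584668, scored 61.4 at 76.1 kb and lay inside the span of Ergic1, so it was the one peak of the 9 with another protein-coding gene nearer than the phosphatase. The gap between these peaks was 53.4 kb. Another peak inside Ergic1, 142.1 kb from Dusp1, scored 186. On the other side of Dusp1 the nearest protein-coding gene was Neurl1b, a ubiquitin ligase gene, at 59.3 kb.

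Dusp5 (chr19:53529145-53541809, plus strand) had 1 peak, chr19:53543665-53543862, which scored 73.3. It lay 1.86 kb beyond the downstream end of the gene and 14.5 kb from its start. The next protein-coding gene on that side, the cohesin subunit gene Smc3, was 56.5 kb from the peak. On the other side the nearest protein-coding gene to Dusp5, Smndc1, was 138.4 kb away. Dusp5 therefore had a peak near its end, while Dusp6 had one at its start and Dusp1 had both of its peaks more than 20 kb upstream.

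Dusp2 (chr2:127336159-127338377), best known in activated immune cells, was 384.1 kb from the nearest peak, which scored 172. It lies 0.262 kb from Astl and 37.2 kb from Stard7, neither of which had a peak within 100 kb. Dusp4 (chr8:34807610-34819894) was 184.5 kb from the nearest peak, chr8:34622955-34623067, which scored 65.9. That peak had no closer protein-coding gene than Dusp4 but lay inside the long noncoding RNA gene B930018H19Rik. The tankyrase gene Tnks, 9.29 kb from Dusp4, and Saraf, 636.8 kb away, had no peak within 100 kb.

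Among the phosphatases for JNK and p38, Dusp8 and Dusp10 contained a peak and Dusp16 had none nearby. Dusp8 (chr7:142079487-142095907, minus strand) held the peak chr7:142095254-142095439, which scored 93.4, nearly the score of the strongest Dusp6 peak (93.5). It ran from 155 bases upstream of the RefSeq start to 30 bases after it. That start (142095284) lies inside the gene span, so the whole peak is within the span. The long noncoding RNA gene Gm32786 also overlaps this peak. The nearest protein-coding neighbours of Dusp8 were Mob2, a kinase-binding protein gene 18.4 kb away, and the predicted gene Gm45618 at 23.7 kb.

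Dusp10 (chr1:184034381-184075636, plus strand) held the peak chr1:184041941-184042210, which scored 114.6 and lay 7.56 kb after the start of the gene. The gene table gives no exons, so whether the peak is intronic was not determined. The gene 1700056E22Rik, 0.383 kb from Dusp10, was 7.94 kb from the peak. The strongest peak within 200 kb of any of the 10 genes lay just outside the limit of 100 kb, 112.6 kb upstream of Dusp10 at chr1:183921254-183921770. It scored 739 and ranked 55 of 2797, and 1700056E22Rik was slightly nearer to it, at 111.3 kb. The long noncoding RNA gene Gm34130 was much closer, at 15.5 kb. On the other side of Dusp10 the nearest protein-coding gene was Hlx, a homeobox gene 651.5 kb away, with a separate peak of score 545 at 50.9 kb from it. At the 100 kb limit, then, the farthest peak inside was the one 76.1 kb from Dusp1, and the nearest peak outside was this one. Dusp16 (chr6:134715468-134807063, minus strand) was 591.9 kb from the nearest peak, which scored 215. Its neighbours Borcs5, 4.28 kb away, and Crebl2, 23.1 kb away, likewise had no peak within 100 kb.

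The start of a gene was rarely covered by a MEF2A peak in this list. RefSeq windows of 300 bases were given for 8 of the 10 phosphatases, all but Dusp4 and Dusp9. A peak overlapped 2 of these 8, those of Dusp6 and Dusp8, against 0.372% of the 17492 protein-coding genes with a window (65 genes). The 64 peaks behind those 65 genes had a median score of 77.4 and ran from 50.5 to 1559. Of them 25 scored above the Dusp8 peak and 40 above the Dusp6 peak. Of the remaining 80 MAPK pathway genes described below, Mapk12, which encodes a p38 kinase of muscle, had a peak over its start window, from 264 to 150 bases upstream with a score of 54.95.

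The Dusp6 and Dusp8 peaks printed above contain no match to the MEF2 consensus, the sequence of 10 bases that MEF2 proteins bind in muscle promoters. The best match was at 8 of the 10 positions in the Dusp6 peak (tcattaacaa) and at 7 in the Dusp8 peak. Over the whole windows of 300 bases, which are longer than the peaks, the best match was also at 8 positions for Dusp6 and at 7 for Dusp8. In such whole windows a match of at least 8 positions is common, present in 63.6% of the 21263 windows of protein-coding genes. The full consensus was present in 10 of the 70 windows that a peak overlapped (14.3%), against 2.74% of all windows. Of the 23 peaks that lay whole inside a window, 2 held the consensus, 6 matched at 9 or more positions, and 17, the Dusp6 and Dusp8 peaks among them, matched at 8 or fewer. The one phosphatase window with the consensus was that of Dusp16, where ttatttttaa begins 57 bases upstream of the RefSeq start. That start (chr6:134792628) lies inside the gene span, which runs on upstream to 134807063. The match is therefore inside the span and not before the gene. No peak lay within 591.9 kb of the span. A match is only a run of letters, and these counts describe the windows.

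The Dusp8 peak held 2 matches to TGACGTCA, the cyclic AMP response element bound by CREB and ATF factors, beginning 107 and 63 bases upstream of the start. Of the 70 windows with a peak, 5 (7.14%) held the element, and Dusp8 was the only one with 2. Among all windows 2.23% held it, and 13 (0.0611%) held 2 or more. The Dusp1 window also held this element, 143 bases upstream, without a peak. In the Dusp5 window the CArG boxes ccatatttgg and ccttatatgg lie end to end, beginning 82 and 72 bases upstream. No peak covers them, the Dusp5 peak lying past the far end of the gene. A CArG box was present in 1.52% of windows and 2 or more in 0.0235%. The CCAAT box, read as CCAAT, was found in 5 of the 8 phosphatase windows and in 38.2% of all windows. None of the 8 windows held the AP-1 site TGANTCA (6.99% of windows), the form CCGGAA of the ETS core (18.7%) or the form CAGCTG of the E-box (15.6%). Other forms were not searched, such as CACCTG for the E-box, present in the Dusp8 peak, and GCGGAA for the ETS core, present in the Dusp6 peak. Both strands were searched. The motifs were chosen after the windows were read, so these shares describe the windows and are no test of rarity. In base composition the peaks differed, with 48.1% G and C in the Dusp6 peak and 73.7% in the Dusp8 peak. The whole windows of these genes held 57.3% and 73.3%, against a median of 56.3% over all windows. The Dusp8 peak makes up 186 of the 300 bases of its window and the Dusp6 peak 106, so the values for peak and window are not independent.

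**Figure D4:**
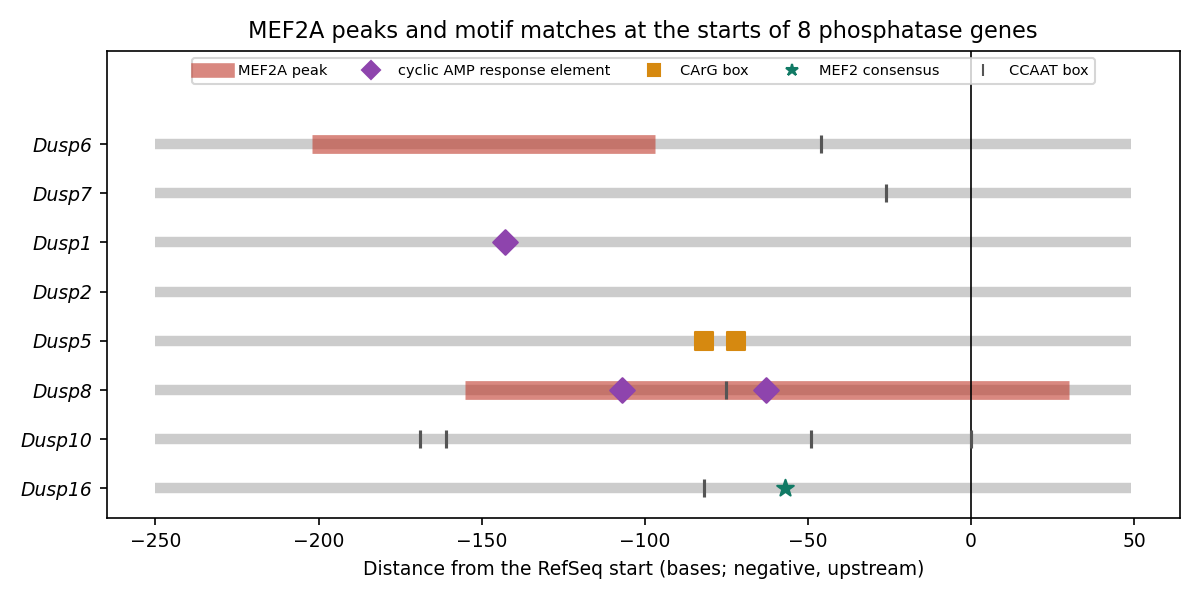
The 300 bases around the RefSeq start of the 8 phosphatase genes with a window (grey bars), in bases from the start, with MEF2A peaks in red and the first base of each motif match as a symbol. Peaks cover part of the Dusp6 and Dusp8 windows, the 2 cyclic AMP response elements of Dusp8 lie inside its peak, and the MEF2 consensus of Dusp16 has no peak over it.

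By the number of peaks, their closeness and their sides, 15 protein-coding genes resembled Dusp6, with 4 peaks within 100 kb, at least 1 of them within 1 kb, and peaks on both sides. The 3 with the nearest top score were Mrps27, Ddah1 and Znfx1, each with 2 peaks within 1 kb of the span or inside it, against 1 for Dusp6. Mrps27, a mitochondrial ribosomal protein gene, had a top score of 100.2, which differed from that of Dusp6 by 6.79. It held a close pair inside its span (scores 100.2 and 55.2), where the pair of Dusp6 lies upstream. Ddah1, whose product degrades methylarginines, had a top score of 73.6 with 2 peaks inside the span. Znfx1, a helicase gene, had a top score of 153, with peaks of 82.5 and 153 at 0.141 and 0.361 kb from one end and a pair 53.2 and 53.4 kb from the other. Of these 3, it alone shared with Dusp6 a layout with no peak inside the span. These likenesses cover 3 measures in 1 library, with the peaks of close pairs counted separately.

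The remaining genes of the pathway were taken as 7 lists with 80 genes. A peak lay within 100 kb of 5 of the 10 phosphatases, against 26 of these 80 genes (32.5%), and within 10 kb of 4 of the 10, against 9 of the 80 (11.25%). Both lie beside the 22.0% and 6.68% of all protein-coding genes. The closest relatives, the 16 atypical dual-specificity phosphatases, gave 5 within 100 kb and 0 within 10 kb. The strongest of the peaks in their windows was 47.6 kb from Dusp13 (score 339), with another protein-coding gene nearer to it. The closest was 10.4 kb from Dusp26 (score 56.6). None of the 3 tyrosine phosphatase genes for MAP kinases, Ptpn5, Ptpn7 and Ptprr, had a peak within 100 kb.

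Of the 14 MAP kinase genes 4 had a peak within 100 kb, and all 4 encode p38 kinases. They share peaks, since the peak at the start of Mapk12 (54.95) lies 1.52 kb from Mapk11, and the peak inside Mapk14 (79.3) lies 47.3 kb from Mapk13. Of the 7 MAP2 kinase genes 2 had a peak within 100 kb and 0 within 10 kb. Of the 22 MAP3 kinase genes 7 had a peak within 100 kb and 3 within 10 kb, where Map3k4 (210), Map3k20 (132.8, with 2 peaks inside) and Araf (62.3) each contained one. Of the 11 kinase genes activated by MAP kinases 3 had a peak within 100 kb and 2 within 10 kb, with a peak inside Mapkapk2 (307) and inside Rps6ka5 (60.0), the gene of a kinase that phosphorylates histone H3 and CREB. Like Dusp6, the Sprouty and Spred genes encode feedback inhibitors of ERK signalling. Of these 7, 5 had a peak within 100 kb, but for 4 of the 5 it was more than 60 kb away, and only Spry2 had one within 10 kb (54.1, at 1.44 kb).

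**Figure D5:**
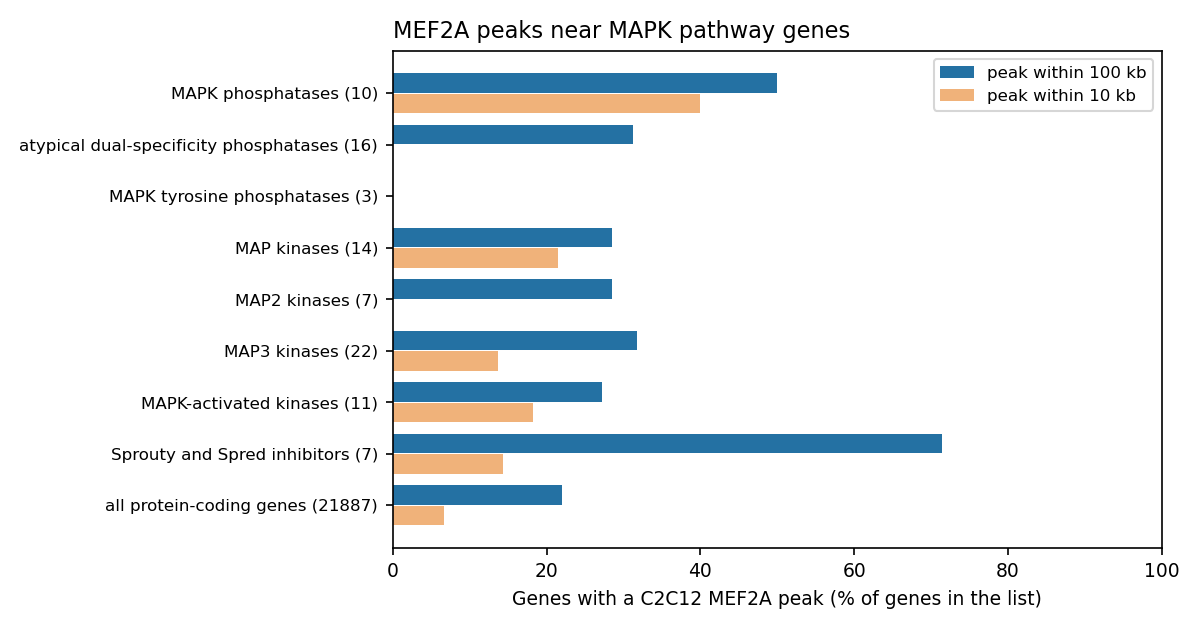
Share of genes in each list (number of genes in brackets) with a C2C12 MEF2A peak within 100 kb (blue) or 10 kb (orange) of the span, with all protein-coding genes in the bottom row. The 10 MAPK phosphatases reach 50% and 40%, against 22.0% and 6.68% of all protein-coding genes, and the atypical dual-specificity phosphatases show no orange bar.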

How the data were processed

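MEF2A ChIP-exo peaks were deposited as a list per library. Per the submitters' processing notes, CASAVA 1.7.0, BWA 0.5.9, Picard, SAMtools, MACS 1.4.2 and the builds mm10 and rn5 were used, with no settings given. The deposited score of each peak has no header, so its scale is not stated. It was used to describe and rank peaks within the C2C12 list. The lists hold no reads, depth or summits, which leaves no basis for a counting interval. The use of IgG reads as a control is not stated in the labels.

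Starts in the lists count from 0, and 1 was added for printing. Distances ran from the nearest edge of a peak to the gene span in the RefSeq table of GRCm38.p6 and were 0 inside it. Strands and starts came from the RefSeq promoter table. For Dusp7, Dusp8 and Dusp16 this start lies inside the gene span and not at its end. Sequence was available only in these windows, so the other 7 peaks have none printed. Distances were checked on 200 simulated peaks, and assignment on a part of them. No statistical test was run, since each group has 1 library.

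The members, lists and rules were chosen with earlier results of these data known, and the motifs after the windows were read. Named genes are the 10 members, their neighbours, list genes with a peak within 10 kb, and 3 genes most like Dusp6. Mapk13, Map3k11, Mknk2, Dusp13, Dusp26, the 3 tyrosine phosphatase genes and the noncoding genes were added after their values were seen. Python 3.11.15, numpy 2.4.6, pandas 2.3.3 and matplotlib 3.10.9 were used.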

Additional observations from a re-analysis of the deposited data

How the results depend on the processing

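With peaks scoring at least 100, 2 of the 10 phosphatases (Dusp1 and Dusp10) had a peak within 100 kb (10.3% of all protein-coding genes), and the same 2 were assigned one as nearest gene (3.47%), in place of 5 in both counts. No Dusp6 peak reaches that score. Within 10 kb both counts were 4, without Dusp1, within 50 kb 5, and within 200 kb 6, with Dusp4. Of all protein-coding genes 6.68%, 14% and 35.2% had a peak within these limits, and 5.75%, 7.13% and 8.24% were assigned one. Merging peaks under 1 kb apart left both at 5 of 10, and distance to the RefSeq start at 5 of the 8 genes with one (18.9% and 7.64% of genes). With genes of any type competing, 4 phosphatases were assigned a peak and Dusp1 was not. Measuring from peak midpoints left 9 peaks and changed no side. For the 80 other pathway genes the count of 26 moved to 12 at a score of at least 100, 9 within 10 kb, 15 within 50 kb and 37 within 200 kb, and from the RefSeq start it was 17 of the 63 genes with one. The shares of all protein-coding genes at these settings are those just given.

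The rat comparison and its alternatives were not run, since an rn5 annotation was not used. No paired analysis was possible because there is a single library for each group. Without replicates or depth, the recurrence of these weak peaks is not known.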

Other observations

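Map3k11, a MAP3 kinase gene, had the most peaks of the pathway genes, 9 within 100 kb, all on one side and 84.4 to 99.7 kb away. For all 9 the nearest gene was Malat1, a long noncoding RNA gene, and their scores ran from 52.1 to 160.5. A peak of score 2172 lay 75 kb from Mknk2, which encodes a kinase activated by ERK and p38, but another protein-coding gene was nearer to it. Both genes were chosen after their values were seen.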
